A study of Mus musculus with 12 samples.

Results

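The comparison sets mouse liver taken 24 h after surgical removal of 2/3 of the organ (partial hepatectomy) against liver taken at 0 h, over every probe of a microarray that carries messenger RNAs and long noncoding RNAs. Its members are the samples that the labels place at 24 h (3) and at 0 h (3), which makes 6 of the 12 samples of the series. The other 6 were taken at 1.5 h and 12 h and entered the fits, where they help to estimate the spread between arrays of 1 time point. Samples at 24 h and at 0 h alike came from male wildtype C57BL/6 mice, 6 weeks old, and the labels count 3 mice per time point. Nothing in the labels says how long after the operation the 0 h liver was handled, at which hour of the day the animals were operated on or killed, or whether they were fed. None of the 12 samples is a sham operation, so the loss of liver tissue and the other effects of surgery, anaesthesia, fasting and time of day cannot be told apart. Whether each array is a separate mouse is not stated outright, and p-values measure the spread between these samples.

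After partial hepatectomy the hepatocytes of the remaining lobes leave rest and divide until the liver mass is restored. Cytokines from macrophages and growth factors prime and drive that entry into the cell cycle, while the remnant has to take over the metabolic and secretory work of the whole organ. The liver also mounts an acute phase response, in which hepatocytes secrete defence proteins into plasma, and fills with lipid droplets for a time. In rodents the hepatocytes copy their DNA late on the first day or on the second, and mouse hepatocytes do so later than those of rat.

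All values below are levels on a log2 scale, made from the scanner's processed intensity by subtracting each array's own 75th percentile, so a level of 0 is that percentile and a difference of 1 is a 2-fold change. Levels of different probes are not comparable with each other. A probe was tested if at least 3 of the 12 arrays had called it well above background, which held for 31168 of 37246 probes. A probe is called, and is said to have risen or fallen, where limma's two-sided adjusted p (Benjamini-Hochberg over all 31168 probes) was under 0.05. A value after ± is the standard error of a log2 fold change, and values for the 24 h arrays are given in the order of replicates 1, 2 and 3.

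A single 24 h array, replicate 2, stood apart. The 75th percentile of the signal was 6567 on 24 h replicate 2 and lay between 444 and 601 on the other 11 arrays. On that array 540 spots were marked as outliers, against 19 to 40 on the others. Its highest level was 7.0, and on the other 0 h and 24 h arrays the highest probe read 8.90 to 9.07, so the brightest genes are compressed towards that value on replicate 2. Across probes, which are not independent replicates, it correlated at r = 0.912 and 0.906 with its fellows at 24 h, which correlated at 0.986 with each other. limma's array weights gave it 0.0397, against 0.331 or more for each other array. The comparison was therefore fitted both on 11 arrays without 24 h replicate 2, which leaves 2 arrays at 24 h, and on all 12 arrays. A fold or log2 fold change given with no fit named comes from the 11 arrays, and a gene said to have risen or fallen was called in both fits unless the text says otherwise. Between the fits, the fold differed by more than 1.5 times for 19 of the 109 genes and transcripts named here and called in both.

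**Figure D1:**
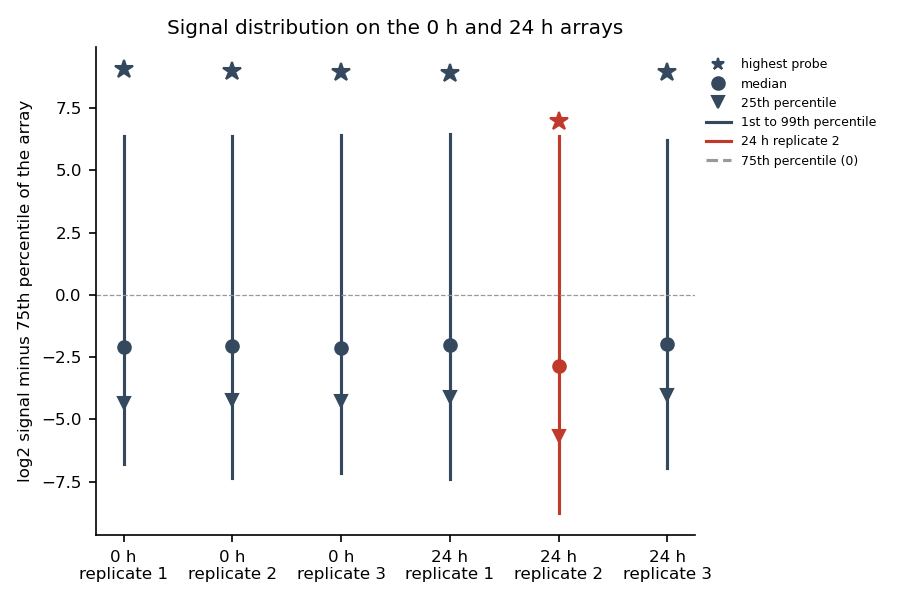
Distribution of levels (log2 signal minus the 75th percentile, dashed line) on each 0 h and 24 h array. The red array, 24 h replicate 2, has its highest probe at 7.0 (stars) and its median at -2.87 (circles), while the medians of the other 5 arrays lie between -2.12 and -1.96.

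With all arrays 1685 probes (5.41% of those tested) were called, 850 higher (2.73%) and 835 lower (2.68%) at 24 h. Without 24 h replicate 2 the count was 5299 (17.0%), 3220 higher (10.3%) and 2079 lower (6.67%). All but 4 of the 1685 were also called without the array, in the same direction, so 1681 probes (5.39%) were called alike in both fits. The median log2 fold change over all probes was -0.18 with all arrays and 0.13 without replicate 2, and changes below are best read against these shifts. Of the probes called without replicate 2, 60.8% were higher; quantile normalization of the same 11 arrays moved that share to 49.0% and the median to 0.04. The 3 arrays of each time did not overlap for 27.0% of probes. Slide here means a group of arrays whose file headers give the same scan date, because no slide number was read. That these groups are physical slides is inferred. No such slide held both a 0 h and a 24 h array. All 0 h arrays lay on slide 1, 24 h replicates 1 and 3 on slide 3, and replicate 2 alone on slide 4. A fit with the slide as a random effect (the slide fit, added after the data were seen) called 281 probes (0.902%) with all arrays and 593 (1.90%; 1.22% higher and 0.683% lower) without replicate 2, with a correlation within slides of 0.855 and 0.478. Slide fit counts given for the lists are those without replicate 2 unless all arrays are named. By the brightest probe of each gene or transcript, on which the list counts rest, 10.3% were called higher and 6.65% lower without replicate 2, and 2.66% and 2.71% with all arrays. A call is named stable where a gene was called in both fits and stayed called when any 1 further array of the 6 was left out, which held for 54 of 109 genes named here and called in both fits. Of the other 55, 52 lost their call in the fit of all arrays when a 0 h array was left out.

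**Figure D2:**
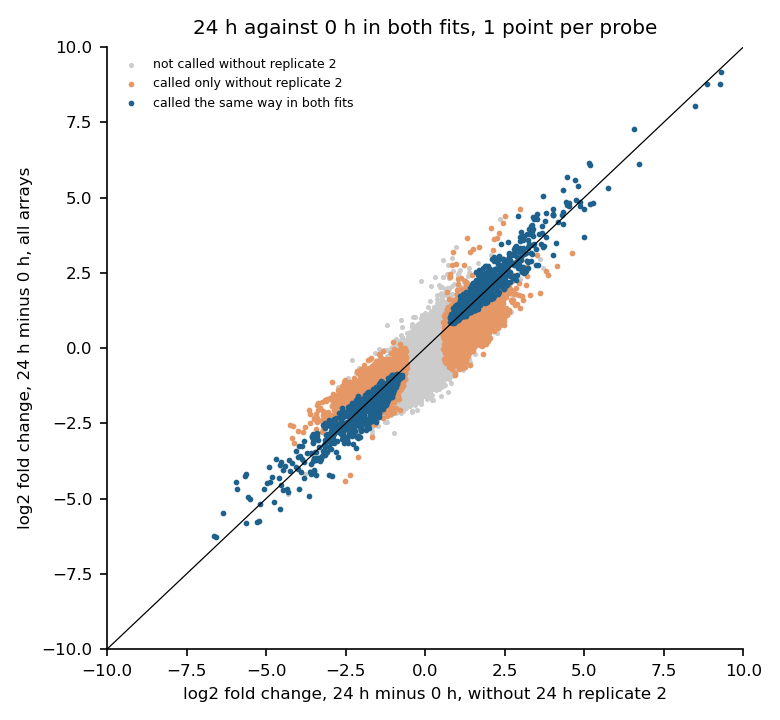
Each point is 1 of 31168 probes, with the log2 fold change of 24 h minus 0 h without 24 h replicate 2 on the horizontal axis and with all arrays on the vertical axis; the line marks equality. Blue probes (1681) were called in the same direction in both fits, and orange probes were called only without replicate 2.

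Several secreted defence proteins were among the steepest rises at 24 h. A2m, the protease inhibitor alpha-2-macroglobulin, was not well above background on any 0 h array (-6.02, -6.76 and -5.49) and read 4.19, 2.85 and 2.24 at 24 h. The groups are far apart. Against the lowest signal called well above background on each 0 h array, the rise was at least 340-fold without replicate 2 and at least 312-fold with all arrays (limma adjusted p = 4.18e-05 and 3.50e-05). Reg3g, an antibacterial lectin of epithelia, went the same way, from -6.43, -6.36 and -6.93 to 2.92, 2.04 and 1.65, a rise of at least 178-fold. Lcn2, the iron-sequestering protein lipocalin 2, read -1.08, 0.61 and -1.16 at 0 h and 7.98, 6.60 and 7.93 at 24 h. Its log2 fold change was 8.49 ± 0.57 without replicate 2, which is 360-fold, and 8.04 ± 0.58 with it. Dmbt1, a mucosal scavenger receptor, rose at least 186-fold, but its 3 arrays at 12 h spread from -3.98 to 2.73 and its call ended when 24 h replicate 3 was left out as well (highest limma adjusted p 0.091). Igdcc4, a membrane protein of the immunoglobulin superfamily, rose at least 26.9-fold without replicate 2 and read highest, at 1.70, on replicate 2. Crybb3, a beta-crystallin known from the eye lens, rose 38.9-fold.

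Of the 8 coding genes named for the steepest falls, 7 follow and Gstm3 stands with the conjugating enzymes. Chrna4, a nicotinic acetylcholine receptor subunit, fell from 2.76, 2.65 and 2.02 to -4.37, -2.98 and -3.97, a log2 fold change of -6.65 ± 0.40 without replicate 2 and -6.25 ± 0.45 with it. Car3, carbonic anhydrase 3, an abundant enzyme of hepatocytes and fat, read 6.95, 6.88 and 7.17 at 0 h and 2.00, 2.98 and 1.00 at 24 h. The 24 h arrays of both genes lie below every 0 h array. Rgs16, a brake on G protein signalling, fell 39.0-fold and Thrsp, a nuclear protein tied to lipid synthesis, 37.6-fold without replicate 2. Hsd3b5, a male-specific steroid dehydrogenase, fell 49.2-fold. Lpin1, a phosphatidate phosphatase, read -3.12 and -1.95 on the other 24 h arrays and 1.91 on replicate 2, against 2.91 to 3.88 at 0 h. Its fall of 61.6-fold (limma adjusted p = 0.0012) became a log2 fold change of -4.46 ± 1.11 with adjusted p = 0.042 when all arrays were used. B020031M17Rik fell 47.7-fold, from 0.70, 0.51 and 0.14 to -7.45, -3.26 and -2.80, and this call ended when 24 h replicate 1 was left out too.

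Acute phase proteins rose as a group. Of 31 measured members of the list, 24 were called higher and none lower without 24 h replicate 2, and 18 and none with all arrays, where 10.3% and 2.66% of all genes and transcripts were called higher. The list's median log2 fold change was 2.14 without replicate 2 and 1.81 with it, against 0.13 and -0.19 over all genes and transcripts. On the single arrays the list's median stood 2.27, 1.12 and 1.96 above the 0 h mean at 24 h, and all 3 values lie above the 0 h arrays, which ran from -0.12 to 0.13. Itih4, of the inter-alpha-trypsin inhibitor heavy chain family, rose from 5.52, 5.41 and 5.54 to 8.15, 6.60 and 7.99, a log2 fold change of 2.58 ± 0.17 without replicate 2, and replicate 2 stands lowest of the 24 h arrays. Saa1, serum amyloid A1, read 5.78, 6.03 and 5.08 at 0 h and 7.79, 6.58 and 7.65 at 24 h. No array overlaps, yet it was called only without replicate 2 (4.25-fold, limma adjusted p = 0.022; with all arrays 0.085), and its close copies among the Saa genes may share signal. In the slide fit without replicate 2, 16 members were higher, A2m, Reg3g, Lcn2 and Itih4 among them. These 4 calls were stable.

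Metallothioneins, small proteins that bind zinc and copper, were higher a day after surgery for some members. Mt2 read 1.50, 2.95 and 1.44 at 0 h and 7.68, 6.43 and 7.74 at 24 h, and Mt1 read 5.07, 5.73 and 5.13 against 8.43, 6.68 and 8.51. For both genes the 24 h arrays exceed the 0 h arrays without overlap, replicate 2 being the lowest of its group and near its ceiling. The rise was 53.6-fold for Mt2 and 8.91-fold for Mt1 without replicate 2. With all arrays the log2 fold change was 5.32 ± 0.59 for Mt2 and 2.56 ± 0.52 for Mt1. Mt4, usually a gene of stratified epithelia, left the background to rise at least 3.80-fold, but this was not called in the slide fit (limma adjusted p = 0.15). Of 9 metallothioneins and zinc transporters measured, 4 were higher and none lower without replicate 2, and 3 and none with it. The slide fit called 2 higher. Among all genes and transcripts the share called higher was 10.3% without replicate 2 and 2.66% with it.

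Markers of neutrophils, the first white cells to enter injured tissue, rose in both fits: 7 of 12 measured were higher and none was lower, and the slide fit called 5 higher and with all arrays 6. Over all genes and transcripts 10.3% were called higher and 6.65% lower without replicate 2, and 2.66% and 2.71% with all arrays. S100a8, a calcium-binding subunit of calprotectin, went from -2.35, -1.53 and -1.82 to 2.89, 2.57 and 3.01, and its partner S100a9 from -0.85, -0.09 and -0.32 to 3.99, 4.68 and 4.24. All arrays of both genes are separated by time, replicate 2 included. The rise was 28.9-fold for S100a8 and 23.1-fold for S100a9 without replicate 2 (limma adjusted p = 3.74e-05 for each). Retnlg, a resistin-like protein of neutrophils, rose 13.6-fold, and Mmp8, neutrophil collagenase, rose at least 2.40-fold from background. In bulk tissue more cells of a type and more RNA per cell cannot be told apart. Marco, a scavenger receptor of Kupffer cells and other macrophages, was the only 1 of 14 macrophage markers called in either fit (7.30-fold higher without replicate 2), and it lost its call when 24 h replicate 1 or 3, or with all arrays 0 h replicate 1, was left out. Of 13 lymphocyte markers none was higher, and Cd79b, a B cell receptor chain, was lower without replicate 2 only (limma adjusted p = 0.013; with all arrays 0.061). S100a8 and S100a9 were not called between 24 h and 12 h (limma adjusted p = 0.87 and 0.37 without replicate 2).

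**Figure D3:**
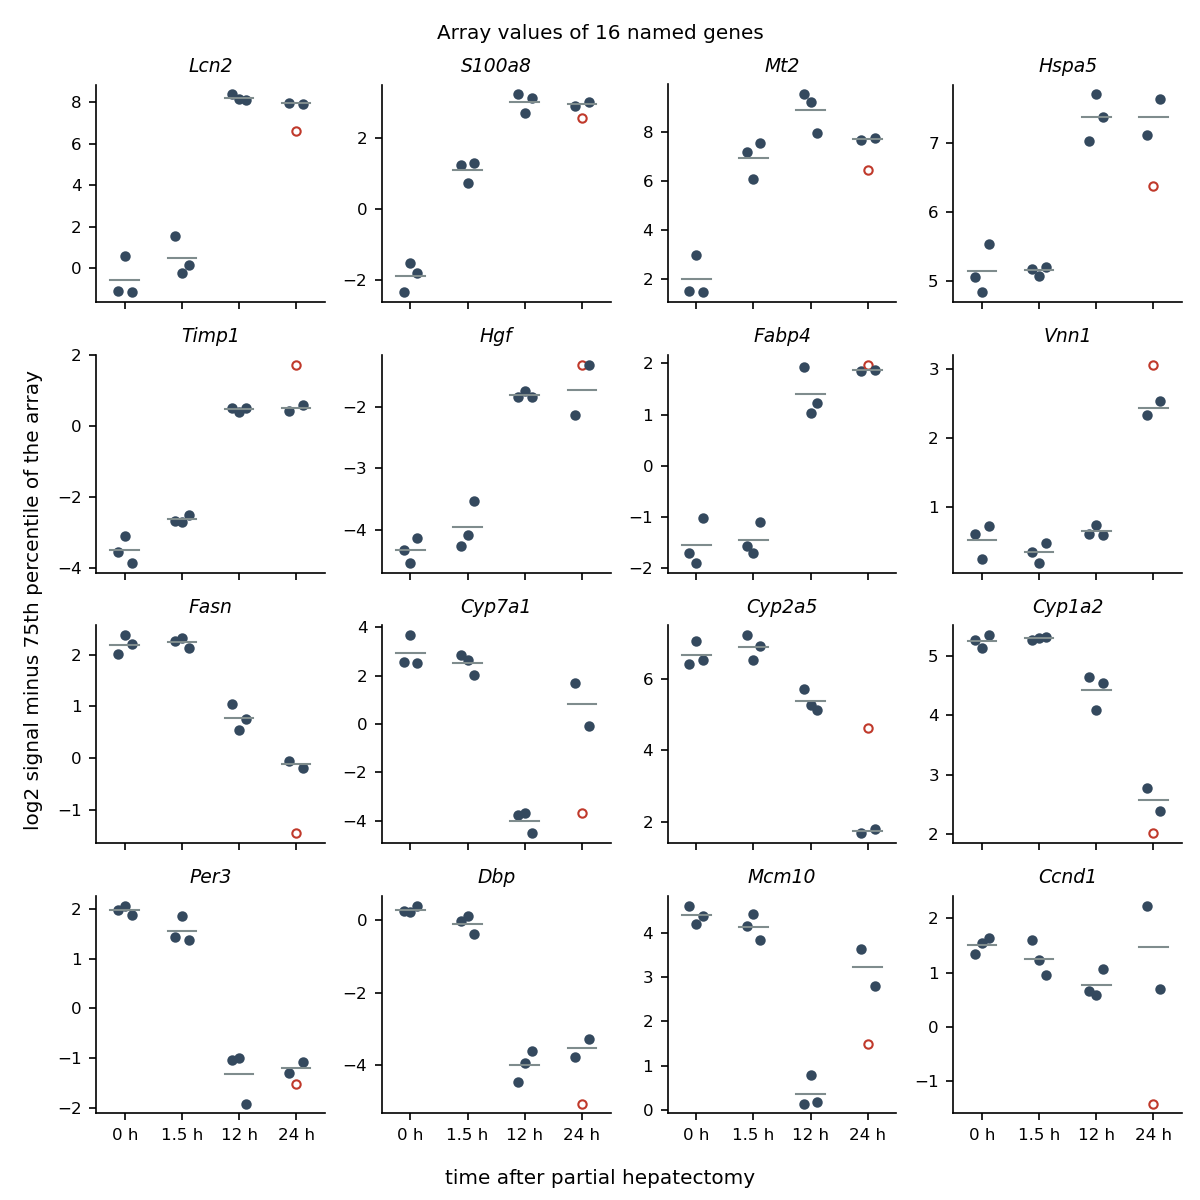
Level (log2) of 16 named genes on each of the 12 arrays, in panels by gene and with time after partial hepatectomy on the horizontal axis; the grey bar is the mean, which leaves out 24 h replicate 2 (open red circle). S100a8, Timp1, Per3 and Dbp at 24 h lie apart from their 0 h arrays on every array, while the 24 h arrays of Ccnd1 surround its 0 h values.

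Genes for protein folding in the endoplasmic reticulum rose, 11 of 20 measured without replicate 2 and 7 with all arrays. The corresponding shares of all genes and transcripts called higher were 10.3% and 2.66%. The promoters of several list members share a sequence element. The endoplasmic reticulum stress element, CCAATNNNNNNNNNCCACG, is the site through which ATF6 is known to raise chaperones when unfolded protein accumulates. It was searched on both strands of the 250 bases before each gene start in RefSeq (GRCm38.p6), and it overlaps the plain CCAAT box that forms its first letters. Of 27025 genes 35 (0.130%) hold it. Among the 19 list members with a promoter entry 8 hold it (42.1%): Calr, Canx, Creld2, Dnajc3, Ero1b, Hsp90b1, Hspa5 and Pdia6. Derl3, named for its size of change and not a member of the list, holds it too. Sdf2l1, a list member called higher in both fits, does not hold the element. Whether holders and other members differ in their change was not tested. This motif was added after the gene values had been seen, and a match only says that the letters are there. The upstream sequences of Hspa5 (chr2:34771840-34772089, plus strand), Creld2 (chr15:88819396-88819645, plus strand) and Derl3 (chr10:75893148-75893397, plus strand) are shown because these genes were called higher in both fits; capitals mark the element, which is on the opposite strand in Creld2 and Derl3.
Hspa5: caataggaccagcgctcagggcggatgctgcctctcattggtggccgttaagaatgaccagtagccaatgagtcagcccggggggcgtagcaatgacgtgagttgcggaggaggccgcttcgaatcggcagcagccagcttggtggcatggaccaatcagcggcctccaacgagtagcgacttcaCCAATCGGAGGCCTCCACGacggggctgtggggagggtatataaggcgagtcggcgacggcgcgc
Creld2: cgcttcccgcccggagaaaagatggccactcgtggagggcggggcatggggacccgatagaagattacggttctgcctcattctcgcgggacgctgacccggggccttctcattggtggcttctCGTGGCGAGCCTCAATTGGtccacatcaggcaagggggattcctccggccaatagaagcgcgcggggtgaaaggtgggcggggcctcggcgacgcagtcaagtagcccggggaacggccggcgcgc
Derl3: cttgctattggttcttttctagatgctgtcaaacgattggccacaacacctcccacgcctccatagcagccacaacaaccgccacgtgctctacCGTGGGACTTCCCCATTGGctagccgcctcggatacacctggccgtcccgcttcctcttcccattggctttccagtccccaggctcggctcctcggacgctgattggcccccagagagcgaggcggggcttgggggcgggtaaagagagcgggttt

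Hspa5, the chaperone BiP, read 5.05, 4.83 and 5.54 at 0 h and 7.12, 6.37 and 7.65 at 24 h, and every 24 h array lies above the 0 h arrays. Its log2 fold change was 2.24 ± 0.28 without replicate 2 and 1.91 ± 0.34 with it. Creld2, a secreted folding factor, went from 2.31, 2.21 and 2.97 to 5.38, 6.11 and 6.11, which is 9.49-fold, and replicate 2 reads as high as its fellows. Derl3, a channel component for the removal of misfolded protein, read -2.56, -1.34 and -2.09 at 0 h and 4.65, 2.96 and 4.78 at 24 h. Its rise was 105-fold without replicate 2, and no array overlaps. It was also higher at 24 h than at 12 h, when it read -1.45, 2.72 and 0.29 (limma adjusted p = 0.021 without replicate 2); that comparison called 15.7% of probes, 8.59% higher and 7.12% lower. Sdf2l1, another resident of the compartment, rose 9.10-fold, and Calr, the calcium-binding chaperone calreticulin, 3.61-fold; 24 h replicate 2 gave no usable spot for Calr, so both fits rest on 2 arrays there. No member of the list was lower in either fit, and the slide fit without replicate 2 called 4 higher. The call of Derl3 missed the slide fit (limma adjusted p = 0.056). That of Hspa5 with all arrays ended when 0 h replicate 1 or 2 was left out. Of 21 targets of ATF4, the factor of the amino acid stress response, 2 were higher and 1 lower without replicate 2, and none was called with all arrays or in the slide fit. For comparison, 10.3% of all genes and transcripts were higher and 6.65% lower without replicate 2. The ATF4 counts are near or below those shares. Gdf15, a stress hormone on that list, read 3.03 on replicate 2 against -0.86 and -0.45 on its fellows and 1.24 to 1.58 at 0 h.

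Fatty acid synthesis genes were lower on every 24 h array. Of 18 measured, 15 were lower and none higher without replicate 2, and 12 and none with all arrays, where 6.65% and 2.71% of all genes and transcripts were called lower. The list's median was -2.39 without replicate 2 and -2.41 with it, and stood at -2.32, -2.06 and -2.46 on the single 24 h arrays. Replicate 2 is close to its fellows in this list. Fasn, fatty acid synthase, read 2.00, 2.37 and 2.20 at 0 h and -0.05, -1.44 and -0.19 at 24 h. Srebf1, the transcription factor SREBP-1 that drives the pathway, went from 2.88, 3.64 and 3.31 to 0.27, -2.07 and -0.93, a fall of 12.2-fold without replicate 2. Acacb, the acetyl-CoA carboxylase at the mitochondrial surface, fell 7.70-fold. Pnpla3, a lipid droplet acyltransferase and lipase that SREBP-1 is known to drive, fell at least 22.5-fold without replicate 2, to -5.86, -5.83 and -5.86. These 4 calls were stable and held in the slide fit, which called 10 members lower without replicate 2. Fasn fell further between 12 h and 24 h (log2 difference -0.90, limma adjusted p = 0.019 without replicate 2).

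**Figure D4:**
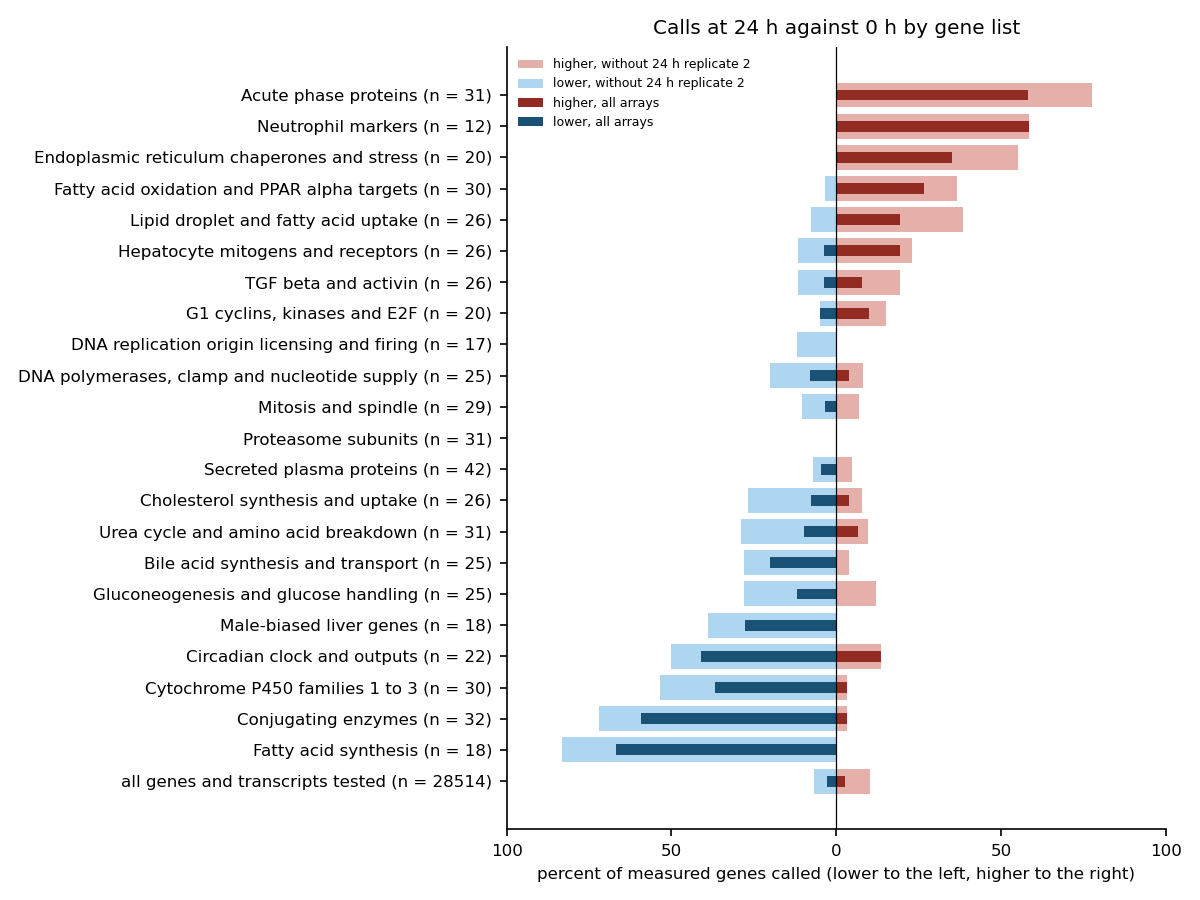
Percent of measured genes called higher (right) or lower (left) at 24 h against 0 h for 22 gene lists and for all genes and transcripts; wide pale bars are without 24 h replicate 2 and narrow dark bars use all arrays. Acute phase proteins reach furthest to the right with 24 of 31 genes, fatty acid synthesis furthest to the left with 15 of 18, and no proteasome subunit was called.

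Some of the genes that take up and store fatty acids rose, 10 of 26 without replicate 2 and 5 with all arrays. Called over all genes and transcripts were 10.3% higher and 6.65% lower without replicate 2, and 2.66% and 2.71% with all arrays. Fabp4, a fatty acid binding protein of fat cells and macrophages, went from -1.71, -1.90 and -1.03 to 1.86, 1.97 and 1.88, and Cd36, the fatty acid translocase, from -2.14, -2.10 and -2.02 to 0.15, -0.28 and -0.46. In both genes replicate 2 sits with its fellows and no array overlaps. The rise was 10.7-fold for Fabp4 and 3.82-fold for Cd36 without replicate 2, and all 5 tested Cd36 probes were called higher in both fits. Slc27a4, a fatty acid transporter, rose 2.54-fold. Cidec, a droplet fusion protein, read 5.65 on replicate 2 and 0.36 and 2.74 on its fellows, against -2.64 to -1.79 at 0 h. It rose 13.0-fold without replicate 2, and that call ended when 24 h replicate 3 was left out too. Plin2, the coat protein of hepatocyte droplets, rose 1.90-fold without replicate 2 only (limma adjusted p = 0.031; with all arrays 0.076) and was lower at 24 h than at 12 h by 2.00 on the log2 scale (adjusted p = 0.0016). Of this list 2 were lower without replicate 2 and none with all arrays, and the slide fit called 3 higher and 1 lower.

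Of 30 genes of fatty acid oxidation and targets of the fasting receptor PPAR alpha, 11 were higher and 1 lower without replicate 2, and 8 and none with all arrays. By comparison, 10.3% of all genes and transcripts were higher and 6.65% lower without replicate 2, and 2.66% and 2.71% with all arrays. Vnn1, a pantetheinase under PPAR alpha control, read 0.60, 0.25 and 0.72 at 0 h and 2.33, 3.06 and 2.53 at 24 h, above every 0 h array. Its rise of 3.76-fold appeared after 12 h, when it still read 0.59 to 0.74 (24 h against 12 h, limma adjusted p = 0.0012). Acadvl, the first enzyme for very long chains, rose 2.58-fold. Creb3l3, a liver factor that works beside PPAR alpha, rose 3.36-fold, and Cyp4a10, an omega-hydroxylase with close copies on the array, 8.65-fold; replicate 2 gave no usable spot for either. In the slide fit without replicate 2 only Vnn1 of the list was called (adjusted p = 0.0086), and the calls of Acadvl and Cyp4a10 ended when 24 h replicate 1 or 3 was left out.

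Of 26 genes of cholesterol synthesis and uptake, 2 were higher and 7 lower without replicate 2, and 1 and 2 with all arrays. The slide fit called 1 lower. Against 0 h, 10.3% of all genes and transcripts were higher and 6.65% lower without replicate 2, and 2.66% and 2.71% with all arrays. Sc5d, a late enzyme of the pathway, fell from 5.75, 5.78 and 5.84 to 3.83, 4.77 and 3.68, and Insig1 and Insig2, which hold SREBP proteins in the endoplasmic reticulum, moved in opposite directions. Insig2 rose 4.18-fold and Insig1 fell 2.39-fold without replicate 2, and both calls ended when 24 h replicate 3 was left out. The list stood higher at 24 h than at 12 h for 15 of its 26 genes without replicate 2 and 13 with all arrays, and lower for none in either fit. That comparison called 8.59% of all probes higher without replicate 2 and 5.98% with all arrays. For bile acids, 1 of 25 genes was higher and 7 were lower without replicate 2, and none and 5 with all arrays; the slide fit called 1 lower. Cyp7a1, which limits the rate of bile acid production, read 2.56, 3.67 and 2.54 at 0 h and 1.71, -3.68 and -0.09 at 24 h. The 2 retained arrays lie below the 0 h arrays but far above replicate 2. Its fall was called without replicate 2 (4.32-fold, limma adjusted p = 0.025) and not with it (adjusted p = 0.070). Without replicate 2 the call ended when 0 h replicate 2 or 24 h replicate 3 was left out too, and over the arrays left out its log2 fold change ran from -3.01 to -1.21. By contrast with 12 h, when it read -3.71 to -4.52, it was higher at 24 h by 4.81 on the log2 scale (adjusted p = 0.0011 without replicate 2). Among uptake carriers of the sinusoidal membrane, Slco1a1 fell 4.25-fold and Slc10a1, the sodium-dependent bile acid carrier NTCP, 5.91-fold. Slc10a1 was not called in the slide fit without replicate 2 (limma adjusted p = 0.26). Cyp27a1, which starts the alternative route of synthesis, fell 2.17-fold, and Abcc3, an export pump, 1.82-fold. Of these 4, only the call of Slco1a1 was stable.

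Some genes of glucose and amino acid metabolism were called. Pygl, liver glycogen phosphorylase, fell from 5.07, 4.95 and 5.16 to 2.15, 3.83 and 1.54, which is 9.29-fold without replicate 2. Slc2a2, the glucose carrier GLUT2, fell 3.68-fold, though it was higher than at 12 h by 2.32 (limma adjusted p = 0.0083). Of 25 genes of glucose handling 3 were higher and 7 lower without replicate 2, and none and 3 with all arrays; the slide fit called 2 lower. Among 31 genes of the urea cycle and amino acid breakdown the counts were 3 and 9 without replicate 2 and 2 and 3 with it, and the slide fit called 1 higher. Of all genes and transcripts, 10.3% were called higher and 6.65% lower without replicate 2, and 2.66% and 2.71% with all arrays. The counts of higher genes in both lists without replicate 2 are near that share. Sdsl, a serine dehydratase-like enzyme, rose from 2.33, 2.38 and 2.24 to 4.61, 5.53 and 5.21 and its call was stable and held in the slide fit. Gldc, of the glycine cleavage system, rose 1.85-fold, while Prodh, proline dehydrogenase, fell 2.70-fold. The calls of Slc2a2, Gldc and Prodh ended when at least 1 further array was left out, 24 h replicate 3 in each case.

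Cytochrome P450 enzymes, which oxidise drugs and steroids, fell in part. Without replicate 2, 16 of 30 were lower and 1 higher, and with all arrays 11 and 1. Called lower over all genes and transcripts were 6.65% without replicate 2 and 2.71% with all arrays, and called higher 10.3% and 2.66%. The list's median was -1.13 and -1.26. Cyp2a5, a coumarin hydroxylase, read 6.42, 7.06 and 6.51 at 0 h and 1.69, 4.63 and 1.81 at 24 h. All 24 h arrays are lower, replicate 2 the least. Its log2 fold change was -4.91 ± 0.28 without replicate 2 and -3.95 ± 0.65 with it, and its near copy Cyp2a4 fell 16.8-fold; the probes may not separate the pair. Cyp2c55 fell 33.2-fold, Cyp3a41a, a member of a group of very similar genes, 21.2-fold and Cyp1a2, which handles caffeine and aromatic amines, 6.34-fold. Cyp1a2 went from 5.26, 5.13 and 5.34 to 2.77, 2.02 and 2.39. These 5 were lower at 24 h than at 12 h also (Cyp1a2 log2 difference -1.84, limma adjusted p = 0.0014 without replicate 2), and their calls against 0 h held in the slide fit, which called 9 lower and 1 higher. Outside this list Cyp17a1, a steroid hydroxylase, rose 17.3-fold, from -1.77, -1.33 and -1.08 to 2.61, 0.86 and 2.84.

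Enzymes that conjugate drugs, bilirubin and hormones fell as well. Of 32 measured, 23 were lower and 1 was higher without replicate 2, and 19 and 1 with all arrays. The slide fit without replicate 2 called 9 and 1, and with all arrays none lower. The share of all genes and transcripts called lower was 6.65% without replicate 2 and 2.71% with all arrays, and called higher 10.3% and 2.66%. Gstm3, a glutathione transferase, went from 6.88, 6.76 and 6.54 to 0.55, 3.00 and 0.21, and Gsta2 from 4.60, 5.01 and 4.32 to -0.52, 2.90 and 0.45. In both the groups do not overlap and replicate 2 fell least. The fall was 81.4-fold for Gstm3 and 25.6-fold for Gsta2 without replicate 2, and both families hold near-identical genes whose probes may share signal. Ugt2b1, a glucuronosyltransferase, fell 4.36-fold. The exception was Sult1e1, estrogen sulfotransferase, which rose 35.7-fold, from -5.11, -4.43 and -5.58 to -0.03, 3.07 and 0.27, and had been higher still at 12 h (log2 difference -2.35, limma adjusted p = 0.012).

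**Figure D5:**
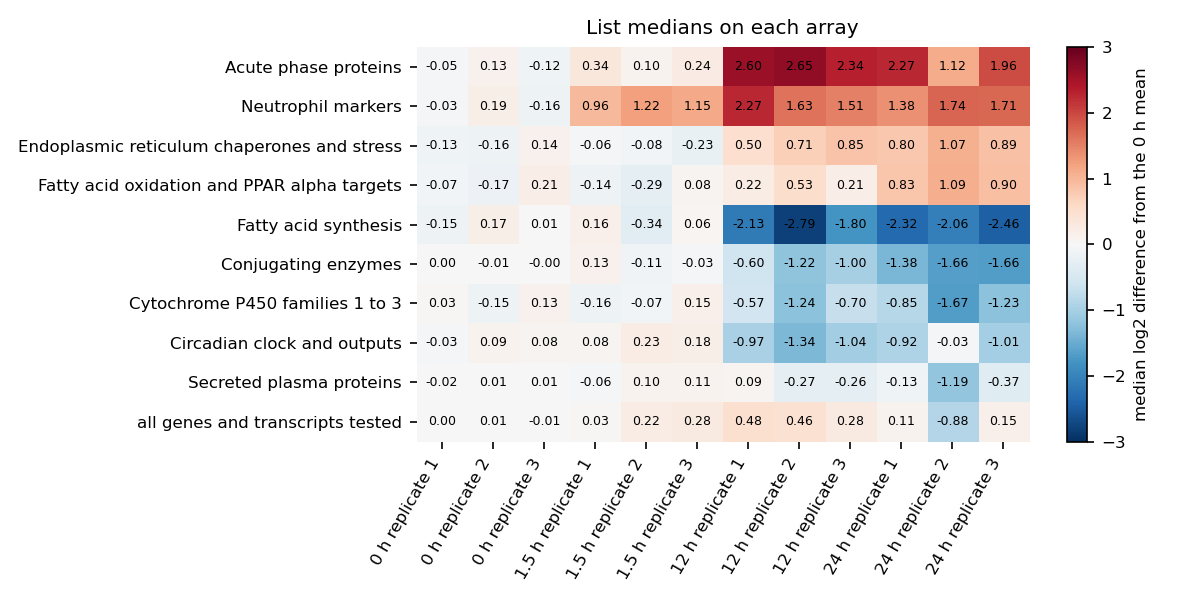
Median log2 difference from the 0 h mean over the genes of a list (rows) on each array (columns), with the value printed in each cell. On 24 h replicate 2 the clock list stands at -0.03 and the secreted plasma proteins at -1.19, where its fellows show -0.92 and -1.01, and -0.13 and -0.37; all genes and transcripts stand at -0.88 there.

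Secreted plasma proteins served as the check of the tissue. All 42 measured were well above background on each of the 6 arrays. Alb, albumin, read 8.08, 8.34 and 8.13 at 0 h and 7.58, 6.46 and 7.57 at 24 h, a log2 fold change of -0.61 ± 0.46 without replicate 2 and -0.98 ± 0.48 with it that was not called (limma adjusted p = 0.39 and 0.28). Of the list 2 were higher and 3 lower without replicate 2, none and 2 with all arrays, and 1 and 2 in the slide fit. Serpina6, the corticosteroid-binding globulin, fell 15.9-fold, from 4.73, 5.30 and 5.23 to 1.75, 1.03 and 0.45, and Ttr, transthyretin, 3.96-fold, from 5.32, 5.38 and 5.37 to 3.79, 3.43 and 2.95. Both calls were stable. Among 23 hepatocyte transcription factors and nuclear receptors 2 were higher without replicate 2, none was lower, and none was called with all arrays or in the slide fit. Of all genes and transcripts, 10.3% were called higher and 6.65% lower without replicate 2, and 2.66% and 2.71% with all arrays. Without replicate 2 the counts of the plasma protein and transcription factor lists are near or below those shares. Nr1i3, the xenobiotic receptor CAR, read 3.51 and 3.67 on the retained 24 h arrays, 2.50 on replicate 2 and 2.25 to 2.59 at 0 h (2.28-fold without replicate 2, adjusted p = 0.0077; with all arrays 0.17). It was higher than at 12 h by 2.58 (adjusted p = 0.00061 without replicate 2).

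Genes with a male bias in liver fell or did not pass: 7 of 18 were lower and none higher without replicate 2, and 5 and none with all arrays; the slide fit called 4 lower. Keg1, a glycine acyltransferase, fell from 2.91, 3.30 and 3.24 to 0.85, -3.45 and -0.63, and Nudt7, a peroxisomal CoA hydrolase, fell 3.70-fold with no usable spot on replicate 2. Keg1 was nevertheless higher at 24 h than at 12 h, when it read -3.99 to -3.01 (limma adjusted p = 0.0013 without replicate 2). As a reference for lists of either bias, 10.3% of all genes and transcripts were higher and 6.65% lower without replicate 2. With all arrays these shares were 2.66% and 2.71%. Of 15 genes with a female bias, 3 were higher and 4 lower without replicate 2, 3 and 3 with all arrays, and 1 and 3 in the slide fit. Cyp17a1 and Cyp4a10 were among the higher, and Cyp2a4 and Cyp3a41a among the lower.

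Growth factors and cytokines for hepatocytes rose in part. Hgf, hepatocyte growth factor, the main mitogen made by the liver's non-parenchymal cells, read -4.33, -4.53 and -4.13 at 0 h and -2.14, -1.32 and -1.32 at 24 h. Every 24 h array is higher, and the log2 fold change was 2.60 ± 0.29 without replicate 2 and 2.73 ± 0.30 with it. Osmr, a receptor of the interleukin-6 family, rose 3.04-fold and Tnf, a priming cytokine, 3.66-fold. Lifr, another receptor of that family, fell 3.46-fold, a call that ended when 24 h replicate 3 was left out too. With all arrays the call of Tnf ended when any 0 h array or 24 h replicate 1 or 3 was left out. That of Osmr ended when 0 h replicate 1 or 2 was. Without replicate 2 the calls of Tnf and Osmr held when 1 further array was left out. In all 6 of 26 mitogens and receptors were higher and 3 lower without replicate 2, and 5 and 1 with all arrays, where 10.3% and 6.65%, and 2.66% and 2.71%, of all genes and transcripts were called so. The slide fit called 3 higher. Of 26 genes of TGF beta and activin, the growth brakes, 5 were higher and 3 lower without replicate 2, and 2 and 1 with it. Inhbb, an activin subunit, rose 10.3-fold and Id2, a target of the BMP branch, 2.32-fold; Nrep fell 3.39-fold. No gene of this list was called in the slide fit, and these 3 calls ended when 24 h replicate 1 or 3 was left out. Of 26 immediate early factors 4 were higher and 5 lower without replicate 2, and 2 and 1 with all arrays; the slide fit called 1 lower. Ier3, an early response gene, rose 3.29-fold and was below its 12 h level by 2.24 (limma adjusted p = 0.0072 without replicate 2), and Dusp1, a phosphatase that switches off MAP kinases, fell 2.56-fold. Fosl1, an AP-1 subunit, was well above background on 1 of the 6 arrays, 24 h replicate 2 alone.

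Of 17 measured genes for licensing and firing replication origins none was called higher in either fit, and 2 were lower without replicate 2. The slide fit called none. Against 0 h, 10.3% of all genes and transcripts were higher and 6.65% lower without replicate 2, and 2.66% and 2.71% with all arrays. The list's median was -0.14 without replicate 2 and -0.23 with it. Mcm2, a subunit of the replicative helicase, read -1.21, -0.51 and -0.97 at 0 h and -0.91, -2.68 and -0.52 at 24 h. Pcna, the sliding clamp, read 1.57, 1.58 and 1.92 against 1.90, 1.73 and 2.18. In both genes the groups overlap (limma adjusted p = 0.66 and 0.31 without replicate 2), with log2 fold changes of 0.18 ± 0.25 and 0.35 ± 0.23. Mcm10, which loads the polymerase, fell from 4.61, 4.19 and 4.38 to 3.62, 1.48 and 2.81 without replicate 2 (adjusted p = 0.028; with all arrays 0.053), yet stood above its 12 h level by 2.85 (adjusted p = 0.0011). Between 12 h and 24 h, 5 of the 17 licensing genes were higher and none lower in both fits. Of 25 genes for polymerases, clamp and nucleotide supply 11 were higher and 2 lower without replicate 2 in that comparison, and 5 and 2 with all arrays, where it called 11.8% of probes, 5.98% higher and 5.84% lower. Without replicate 2 it called 8.59% of probes higher and 7.12% lower. Against 0 h, the latter list held 2 higher and 5 lower without replicate 2 and 1 and 2 with all arrays, and the slide fit called 1 higher. Ung, which removes uracil from DNA, rose 4.68-fold and Tk1, the thymidine kinase of dividing cells, fell 4.06-fold; Tk1 lost its call when 24 h replicate 3 was left out. Uhrf1, which keeps DNA methylation through replication, fell 2.35-fold by its brightest probe, and 2 of its 4 probes were called.

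E2F factors switch on replication genes, and their site (TTTCCCGC, TTTGGCGC, TTTCGCGC or TTTGCCGC, both strands) is in the 250 upstream bases of 4 of the 14 licensing genes with a promoter entry (28.6%) and of 2.16% of all 27025 genes. None of these 4 genes, Gins3, Mcm6, Mcm7 and Orc1, was called in either fit. Of 20 G1 cyclins, kinases and E2F genes 3 were higher and 1 lower without replicate 2, 2 and 1 with all arrays, and 1 higher in the slide fit. E2f8, a late repressor of the family, rose from -2.82, -2.90 and -2.80 to -0.92, -0.38 and -1.11, 3.55-fold without replicate 2, with no overlap and with its call kept in the slide fit. Ccnd1, cyclin D1, the usual mark of hepatocytes leaving G1 rest, read 1.34, 1.54 and 1.64 at 0 h and 2.23, -1.41 and 0.70 at 24 h. The 24 h arrays lie on both sides of the 0 h arrays, and the log2 fold change was -0.04 ± 0.39 without replicate 2 (limma adjusted p = 0.96). Ccnd2 fell 2.25-fold and Ccnd3 rose 1.88-fold, but neither call was stable. Neither gene was called in the slide fit without replicate 2 (limma adjusted p = 0.056 for Ccnd2 and 0.23 for Ccnd3). Cdkn1a, the inhibitor p21, read -1.98, -1.87 and -1.86 at 0 h and -0.90, -1.57 and 0.31 at 24 h; it rose 3.06-fold without replicate 2 (adjusted p = 0.032; with all arrays 0.19), and the call ended without 24 h replicate 3. Of 20 cell cycle inhibitors and p53 targets 1 was higher and 1 lower without replicate 2, and none was called with all arrays or in the slide fit. For mitosis, Mki67 read -3.31, -2.52 and -3.07 against -3.38, -5.03 and -3.11, and Ccnb1, cyclin B1, was not called either (adjusted p = 0.40). Of 29 mitosis genes 2 were higher and 3 lower without replicate 2, and none and 1 with it, where 10.3% and 6.65%, and 2.66% and 2.71%, of all genes and transcripts were called so; the slide fit called none. Birc5, survivin, was the 1 lower with all arrays, down 3.62-fold without replicate 2. The CCAAT box, common in promoters of mitotic genes, is in 21 of 25 of theirs (84.0%) and in 37.5% of all. It is not particular to them. In the other lists searched it ran from 28.6% (metallothioneins and zinc transporters) to 89.5% (endoplasmic reticulum chaperones and stress). None of 31 proteasome subunits was called in either fit (Psmd6 came nearest, adjusted p = 0.054 without replicate 2), and of 35 ribosome biogenesis genes 3 were lower without replicate 2 and none was called with all arrays; the slide fit called none of either list.

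Of 22 clock genes and clock outputs measured, 3 were higher and 11 lower without replicate 2, and 3 and 9 with all arrays. The slide fit called 2 and 8. The shares of all genes and transcripts called higher and lower were 10.3% and 6.65% without replicate 2. With all arrays they were 2.66% and 2.71%. Without replicate 2 the count of higher clock genes is near the share over all. Per3, a period gene of the negative arm, carries 2 copies of the D-box (TTATGTAA or TTACGTAA, both strands), the site of the clock output factors DBP, TEF and NFIL3, in the 250 bases before its start (chr4:151044666-151044915, minus strand, GRCm38.p6, RefSeq). Of all genes 1.1% hold a D-box there, and Per3 is the 1 of 18 clock genes with an entry that does. Its sequence, with the 2 copies in capitals, follows.
Per3: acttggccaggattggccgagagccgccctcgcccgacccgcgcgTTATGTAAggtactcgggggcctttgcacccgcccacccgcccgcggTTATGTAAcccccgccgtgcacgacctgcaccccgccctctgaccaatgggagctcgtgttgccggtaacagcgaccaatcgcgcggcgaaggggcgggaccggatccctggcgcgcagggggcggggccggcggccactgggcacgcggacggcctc

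Per3 read 1.97, 2.07 and 1.88 at 0 h and -1.30, -1.52 and -1.08 at 24 h. Dbp, the output factor itself, read 0.25, 0.22 and 0.40 against -3.77, -5.06 and -3.27. Arntl, the positive arm's BMAL1, moved the opposite way, from -0.95, -1.20 and -1.87 to 2.19, 2.51 and 1.63. No array of these genes overlaps with the other time, replicate 2 included. The fall was 8.95-fold for Per3 and 14.0-fold for Dbp, and the rise of Arntl 9.52-fold, without replicate 2. Usp2, a deubiquitinase under clock control, fell 10.7-fold and Wee1, a clock-driven mitotic inhibitor, 6.50-fold. Per3, Dbp and Arntl were not called between 24 h and 12 h (limma adjusted p = 0.77, 0.23 and 0.48 without replicate 2). The 0 h and 24 h samples would fall at the same clock hour only if each mouse had been operated on at the same hour and the 0 h liver taken then, which the labels do not say, so time of day cannot be told apart from the operation. On replicate 2 the median of the list was -0.03 against -0.92 and -1.01 on its fellows.

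Markers of the liver's other cells were called in differing numbers from list to list. Timp1, an inhibitor of matrix proteases made by activated stellate cells and others, rose 16.1-fold, from -3.56, -3.11 and -3.86 to 0.41, 1.72 and 0.58, and its call was stable. Of 18 stellate cell and matrix markers 4 were higher and 2 lower without replicate 2, and 2 and none with it; Dcn, decorin, rose 2.28-fold. Lyve1, of sinusoidal endothelium, rose 4.98-fold. Of 17 endothelial markers 3 were higher and 1 lower without replicate 2, where 10.3% and 6.65% of all genes and transcripts were, and 1 and none with all arrays. Sox9, of bile ducts and progenitors, rose 3.29-fold and Krt23, a keratin inducible in hepatocytes, fell 3.22-fold. Of 11 bile duct and progenitor markers 2 were higher and 1 lower without replicate 2, and 1 and 1 with all arrays. Genes of the organ's surface and surroundings also moved. Msln, of the mesothelium that covers the liver, read -4.97, -4.04 and -4.31 at 0 h and -1.13, -1.63 and -1.12 at 24 h, 9.98-fold higher, and 4 of 7 mesothelial markers were higher without replicate 2 and 3 with all arrays, with list medians of 1.61 and 1.29 (Upk1b 3.05-fold; Wt1 at least 1.67-fold). Cfd, the complement factor adipsin from fat, rose at least 10.6-fold, and of 9 adipose markers 4 were higher and 1, Car3, lower without replicate 2, and 3 and 1 with all arrays. Car3 and Cidec are hepatocyte genes too, and Fabp4 and Cidec are counted in the lipid droplet list as well. Of 12 pancreas markers 2 were higher and 1, Cela2a, lower (4.59-fold) without replicate 2, and none and 1 with all arrays. Of 10 muscle markers 2 were higher without replicate 2 and 1 with all arrays, Tnni2 3.96-fold with no usable spot on replicate 2. The calls of Sox9 and Msln were stable, as was that of Timp1. Those of Dcn, Lyve1, Krt23, Upk1b, Wt1, Cfd, Cela2a and Tnni2 were not. The slide fit called 3 adipose markers higher and 1 lower, 2 mesothelial, 1 stellate and 1 endothelial marker higher, and no marker of pancreas, muscle, bile duct, lymphocytes, macrophages or red cells. The part of such cells in the other lists was not tested. Slc4a1, the anion exchanger of red cells, was the only 1 of 8 erythroid markers called, higher without replicate 2. Of 29 cytosolic ribosomal protein genes 5 were higher and 3 lower without replicate 2, and Rplp0 alone was higher with all arrays; the slide fit called none.

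Noncoding transcripts made up 11274 of the tested probes. With all arrays 208 were higher (1.84%) and 344 lower (3.05%), 4.90% in all, and their median log2 fold change was -0.36. Without replicate 2 the counts were 1181 higher (10.5%) and 763 lower (6.77%), 17.2% in all, and the median 0.16. The balance of higher and lower noncoding calls therefore differed between the fits, and the 25th percentile of levels was -5.69 on replicate 2 against -4.32 to -4.04 on the other 5 arrays. Both fits called 550 of them alike (4.88%), 208 higher and 342 lower. The files give no sequence or coordinate for these transcripts, and they are named as on the array.

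The noncoding transcript uc009kuy was not well above background on any 0 h array (-5.17, -6.15 and -6.00) and read -1.27, 1.57 and -0.89 at 24 h. Its rise was at least 17.3-fold without replicate 2, and it stood below its 12 h level by 1.63 (limma adjusted p = 0.026). The RefSeq noncoding transcript NR_003640 rose at least 4.18-fold in the same way, from -6.81, -7.45 and -7.13 to -2.74, -1.81 and -3.52. uc009nsv rose 12.8-fold from a level seen above background on 1 of 3 arrays at 0 h. A transcript of an ultraconserved element went from -3.04, -2.58 and -2.84 to 0.65, -1.54 and 0.66, 11.1-fold without replicate 2. All 4 were called in both fits, and the ultraconserved transcript alone lost its call with all arrays when a 0 h array was left out.

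Of the falling noncoding transcripts, AK019073 went from 0.94, -0.43 and -0.78 to -6.59, -5.75 and -6.78, at least 33.8-fold lower without replicate 2. AK029225 fell at least 27.8-fold, although replicate 2 read -2.55 where its fellows read -5.68 and -6.90. AK085538 fell 31.4-fold, from 2.04, 1.69 and 0.39 to -4.05, -2.08 and -3.14, and was not called in the slide fit (limma adjusted p = 0.12). uc009tan fell at least 8.21-fold. Of 11 measured well-known long noncoding RNAs only Tug1 was called, 1.65-fold higher without replicate 2 (adjusted p = 0.036) and not with all arrays (adjusted p = 0.061).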

How the data were processed

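Total RNA of 12 liver samples was labelled with Cy3 and hybridised to 1-colour Agilent arrays, 1 per sample. Per the file headers and the submitters' processing notes, the deposited intensity values are the processed signals of Agilent Feature Extraction 10.5.1.1. The authors' deposited log2 values for 20271 probes served as an alternative; how the authors normalised them is not given in the sources used here. Control spots and outlier spots were left out, spots of a probe were averaged, and the log2 intensity minus the array's 75th percentile was fitted with limma 3.58.1 in R 4.3.3 (lmFit, eBayes) over all 4 time points, without covariates. The fit was tested on simulated data. A gene is represented by its brightest probe. No per-sample columns were left unmapped (0).

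The members and gene lists were chosen with earlier results of these data known. Genes were named by rule. The rule took the 8 coding genes and 4 noncoding transcripts at each end that were called in both fits without overlapping arrays. It also took up to 4 members of each list called in both fits (otherwise the member with the smallest adjusted p), and a fixed set of markers. Other genes appear as holders of a promoter motif. The genes under other observations were picked for their gap on 24 h replicate 2 after their values were seen. Some genes that the rule names are not reported here. Lists were described by counts and medians, without a set test. Promoter sequences are RefSeq's, on GRCm38.p6. Alternatives covered background correction, normalization, filters, array weights, slide, replicate number and leaving out arrays; those added after seeing the data are the slide as a random effect, the alternatives run without 24 h replicate 2, and 1 promoter motif. The number of arrays limits the precision.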

Additional observations from a re-analysis of the deposited data

How the results depend on the processing

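The count of 1685 called probes moved to 5299 without 24 h replicate 2, 8522 with array weights, 256 with normexp background correction, 145 with a 2-fold minimum, 83 with the slide as a fixed block, 281 with the slide as a random effect and 128 from the 0 h and 24 h arrays alone. Leaving out 1 array gave 415 to 5299. The count of 5299 without replicate 2 moved to 79 with the slide block and 593 with the slide as a random effect, and to between 1048 and 3496 when 1 further array was left out. The fixed slide block compares 24 h with 0 h only through the 1.5 h and 12 h arrays, and the cause of the other shifts was not tested. Deviations from the group mean correlated at -0.03, -0.12 and -0.10 between 0 h and 24 h arrays of the same replicate number. The 24 h mean includes replicate 2, so these values cannot decide whether replicate numbers pair the samples. With the replicate block 1156 probes were called, and 4240 without replicate 2. Of 109 named genes called in both fits, 57 were called the same way with normexp, 43 with the 2-fold minimum, 13 with the slide block, and 106 with quantile normalization. Signs reversed for Uhrf1 (0.0645) and Id2 (-0.0217) with the slide block in both fits and for Wt1 with normexp (-0.056). List medians reversed for cholesterol (0.0791) and gluconeogenesis (0.0234) with the slide block without replicate 2, and for gluconeogenesis when 1 further array was left out (-0.6504 without 24 h replicate 1 to 0.018 without 24 h replicate 3). The female-biased list without replicate 2 reversed with the authors' deposited values (-0.20) and, over the arrays left out, ran from -0.1814 without 0 h replicate 1 to 0.4945 without 0 h replicate 3. The adipose list reversed with normexp (-0.46), the authors' deposited values (-0.0758, and -0.32 without replicate 2), probes well above background on all arrays (-0.29) and, over the arrays left out, ran from -0.1381 without 24 h replicate 1 to 0.9677 without 24 h replicate 2. The mesothelial list reversed with normexp (-0.0039).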

Other observations

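Several genes read differently on 24 h replicate 2 than on both of its fellows, and they were picked for that gap after their values were seen. Nr1d1, the clock repressor REV-ERB alpha, read -3.71 on replicate 2 against -0.06 and 0.23 on the others. Cd5l, a protein secreted by macrophages, read -1.11 against 1.42 and 2.68. In the other direction Pfkfb3, which sets the pace of glycolysis, read 6.42 against 1.77 and 2.03, with -0.65 to -0.11 at 0 h. Fgf21, a fasting hormone of the liver, read 3.65 against -0.48 and 1.56. The ribosomal protein gene Rps23 read 6.39 on replicate 2, where its fellows read 2.90 and 3.20 and the 0 h arrays 5.44 to 5.51.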
